A study of Mus musculus with 12 samples.

Results

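The effect of a high-fat diet was examined in the livers of mice that all received 2% dextran sulfate sodium (DSS), a polymer that damages the colon lining and is given to mice to model colitis. All animals were wild type and of the strain C57BL/6J. The HFD_DSS group had the high-fat diet (HFD) with DSS and the CD_DSS group had DSS with the diet abbreviated CD in the labels, where the abbreviation is not explained. The HFD and CD groups had the same diets without DSS. Each group had 3 liver RNA libraries, so that 6 of the 12 libraries of the study entered the comparison of HFD_DSS with CD_DSS, and the other 6 gave the diet effect without DSS. Expression was read as FPKM, the sequenced fragments of a gene scaled to the length of its exons and to the total fragments of the library. Of 54532 gene IDs, 10294 reached 1 FPKM in 3 or more of the 6 DSS libraries and were tested. None of the sources used here states the sex or age of the mice, the length of each diet or the route and duration of DSS. Whether each library is a separate mouse is not stated in the labels, so the scatter behind each p-value may be technical only. The question put to the data was how the liver under DSS differed between the diets.

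The liver clears drugs, steroids and bile products with cytochrome P450 enzymes, which oxidise them, and with UDP-glucuronosyltransferases and glutathione S-transferases, which attach a soluble group. Many of these genes are switched on by the nuclear receptors CAR and PXR, which bind paired copies of the hexamer AGGTCA or close variants of it. The liver also makes cholesterol and fatty acids under the control of the SREBP transcription factors, secretes acute phase proteins when the gut or another tissue is inflamed, and in male mice secretes large amounts of major urinary proteins in response to growth hormone.

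The promoters of Ugt1a9, Cyp3a11 and Cyp2c29, which were low in HFD_DSS, are shown because each holds the hexamer AGGTCA close to the start. Each line is the stretch of 250 bases directly before the annotated start, read 5′ to 3′ on the strand of the gene from the RefSeq promoter table (GRCm38.p6), with AGGTCA in capitals.
Ugt1a9, chr1:88070529-88070778, plus strand: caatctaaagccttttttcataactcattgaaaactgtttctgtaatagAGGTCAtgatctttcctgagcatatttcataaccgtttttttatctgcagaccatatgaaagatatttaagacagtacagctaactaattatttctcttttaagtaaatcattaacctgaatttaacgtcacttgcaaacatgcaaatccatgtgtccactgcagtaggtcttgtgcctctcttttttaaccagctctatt
Cyp3a11, chr5:145879855-145880104, minus strand: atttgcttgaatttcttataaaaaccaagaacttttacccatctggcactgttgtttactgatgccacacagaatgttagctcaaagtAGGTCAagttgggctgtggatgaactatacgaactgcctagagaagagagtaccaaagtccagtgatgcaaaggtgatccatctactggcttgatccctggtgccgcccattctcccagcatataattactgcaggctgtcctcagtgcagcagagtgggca
Cyp2c29, chr19:39286835-39287084, plus strand: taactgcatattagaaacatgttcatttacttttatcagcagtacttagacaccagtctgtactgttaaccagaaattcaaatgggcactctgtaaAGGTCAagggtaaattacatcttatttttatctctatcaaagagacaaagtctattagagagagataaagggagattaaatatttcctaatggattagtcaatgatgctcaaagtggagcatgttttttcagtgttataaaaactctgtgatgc
In these 3 windows the hexamer lay 201, 162 and 154 bases before the start of Ugt1a9, Cyp3a11 and Cyp2c29. Searched on both strands over the same length, it was present in 4607 of all 32851 promoters in the table (14%). The share was 3 of 15 promoters (20%) for the 14 genes called below and 5 of 17 (29.4%) for the P450 list. Counted by gene, it was present in 4260 of all 27025 genes with a promoter entry. It was present in 3 of 12 such genes among those called (Ak4, Cyp3a11 and Ugt1a9) and in 4 of 16 of the P450 list. A match of these letters is a description of the window and not a bound site.

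The DSS libraries held 23.4 to 26.5 M fragments in HFD_DSS and 25.2 to 29.4 M in CD_DSS. The log2 values correlated at 0.972 to 0.989 between DSS libraries of a group and at 0.958 to 0.982 between HFD_DSS and CD_DSS libraries. In a principal component analysis of the 6 DSS libraries, the first component (44.6% of the variance) did not follow diet. It placed HFD_DSS 1, 2 and 3 at −19.5, 5.197 and −16.4 and CD_DSS 1, 2 and 3 at 30.5, −1.63 and 1.81, so that CD_DSS 1 stood apart. The second component (24.5%) separated the diets, with HFD_DSS at 4.23, 16.1 and 7.56 and CD_DSS at 4.41, −13.6 and −18.7, except that CD_DSS 1 lay above HFD_DSS 1. CD_DSS 1 and HFD_DSS 2 also had the lowest acute phase gene levels of their groups, as given below. Counts that lead a statement were therefore also made with CD_DSS 1 and HFD_DSS 2 both left out. Both were chosen after their values had been seen, so such a count describes the remaining libraries and is no separate support for a difference. Its background is 24.4% of all genes above and 24.4% below. The markers of hepatocytes were abundant in each library, as the label liver requires: their summed level was 29959.7 to 51145 FPKM in HFD_DSS and 50962 to 56204.5 FPKM in CD_DSS, with Alb, which encodes albumin, as the main contributor.

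In DSS-treated livers the drug-metabolising genes Ugt1a9, Cyp3a11 and Cyp2a5 fell on the high-fat diet, and the major urinary protein gene Mup11 and the noncoding RNA BC049987 rose. In all, 14 of the 10294 genes tested passed limma's test at a Benjamini-Hochberg adjusted p of 0.05 (0.136% of genes), of which 6 were higher in HFD_DSS (0.0583%) and 8 were lower (0.0777%). In each of the 14, all 3 HFD_DSS libraries lay on the same side of all 3 CD_DSS libraries. Over all genes tested, 7.49% had all 3 HFD_DSS libraries above all 3 CD_DSS libraries and 9.06% had them all below, and these shares are the background for the counts of gene lists below. At an unadjusted p under 0.05 there were 1149 genes, 525 higher and 624 lower in HFD_DSS. The median log2 fold change of all genes, taken on FPKM + 1 as all fold changes here, was −0.0038. The number of calls rested on single libraries: it was 3 without HFD_DSS 3, 3 without CD_DSS 3 and 30 without HFD_DSS 2, and with CD_DSS 1 and HFD_DSS 2 both left out it was 10, of which 6 were among the 14. BC049987 and Ugt1a9 were called whichever of the 6 DSS libraries was left out. Mup11, Cd9, Nxpe2 and Gm2a were not called without HFD_DSS 3 or without CD_DSS 3, Gm45344 without HFD_DSS 1 or CD_DSS 3, and Ak4 without HFD_DSS 1, HFD_DSS 3, CD_DSS 1 or CD_DSS 3. Gm47465 was not called without HFD_DSS 1, and it, Cldn2 and Cd207 were not called without HFD_DSS 3 or any single CD_DSS library, nor Cd207 without HFD_DSS 2. Paics was not called without any single one of the 6.

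**Figure D1:**
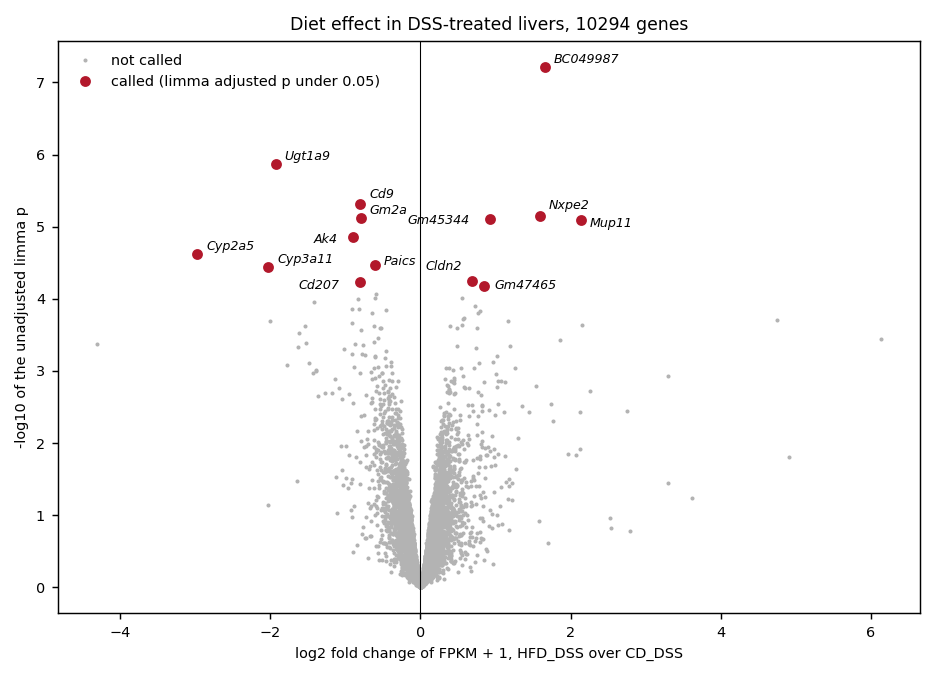
Each point is 1 of the 10294 genes, with the log2 fold change of HFD_DSS over CD_DSS on the x axis and −log10 of the unadjusted limma p on the y axis. The 14 called genes are drawn in red and named, 6 to the right of 0 and 8 to the left, and BC049987 lies highest.

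Genes of drug clearance fell or lay lower in HFD_DSS. Ugt1a9, a glucuronosyltransferase that conjugates drugs and steroids, had 4.78, 6.82 and 4.34 FPKM in HFD_DSS livers, against 33.5, 17.2 and 20.3 FPKM in CD_DSS livers. All HFD_DSS libraries were well below all CD_DSS libraries, a log2 fold change of −1.93 (SE 0.21, limma adjusted p = 0.00697). Without DSS the same gene had 6.71, 5.56 and 6.73 FPKM in HFD and 27.7, 24.8 and 25.7 FPKM in CD (log2 fold change −1.89, SE 0.21, limma adjusted p = 0.0175), and the diet effects with and without DSS differed by −0.04 (SE 0.30). With the DSS groups fitted alone the adjusted p of Ugt1a9 was 0.106. Ugt1a9 (ENSMUSG00000090175) spans chr1:88070800-88218997 in mm10, and 59.9% of its exon bases are shared with Ugt1a2 on the same strand, so its level depends on how the authors assigned fragments of the shared exons.

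Cyp3a11, a major drug-oxidising P450 of mouse liver and a classical PXR target, had 129, 224 and 101 FPKM in HFD_DSS, against 913, 578 and 383 FPKM in CD_DSS. The highest HFD_DSS library was below the lowest CD_DSS library, and the log2 fold change was −2.03 (SE 0.31, limma adjusted p = 0.0337). Without DSS it had 419, 492 and 415 FPKM in HFD against 742, 671 and 737 FPKM in CD (log2 fold change −0.70, SE 0.31, limma adjusted p = 0.731). Cyp2a5, which oxidises coumarin and nicotine, had 1.25, 3.38 and 1.78 FPKM in HFD_DSS, against 55.9, 13.1 and 15.4 FPKM in CD_DSS. The groups did not overlap, CD_DSS 1 was far above the other CD_DSS libraries, and the log2 fold change was −2.97 (SE 0.43, limma adjusted p = 0.0272). Without DSS Cyp2a5 had 40.1, 53.0 and 38.2 FPKM in HFD against 98.2, 77.8 and 93.3 FPKM in CD. For neither gene was the difference between the diet effects called (limma adjusted p = 0.943 for Cyp3a11 and 0.873 for Cyp2a5). Cyp3a11 lies at chr5:145854426-145879964 and Cyp2a5 at chr7:26835305-26843548 in mm10. Both belong to families with near-identical copies, and none of the sources used here says how fragments of shared sequence were counted. Their calls rested on single libraries. Cyp3a11 was not called without HFD_DSS 1, HFD_DSS 3, CD_DSS 1 or CD_DSS 2 (limma adjusted p = 0.1003, 0.146, 0.0609 and 0.0681). Cyp2a5 was not called without HFD_DSS 1, HFD_DSS 3 or CD_DSS 3 (limma adjusted p = 0.1003, 0.127 and 0.0578).

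The list of P450 genes and CAR and PXR targets had 18 of 29 members above the filter. Of these, 2 were called, both lower (Cyp2a5 and Cyp3a11), 8 had all HFD_DSS libraries below all CD_DSS libraries (44.4%, beside 9.06% of all genes) and 0 had them all above. When CD_DSS 1 and HFD_DSS 2 were left out, 14 of the 18 lay below, beside 24.4% of all genes that had both remaining HFD_DSS libraries below both remaining CD_DSS libraries. The median log2 fold change of the 18 was −0.75 with DSS and −0.38 without. Without DSS 8 of the 18 also lay below in all HFD libraries and 0 above, beside 6.59% of all genes below in that comparison. Cyp2c29, a steroid and fatty acid hydroxylase, had 102, 123.5 and 75.3 FPKM in HFD_DSS against 392, 211 and 222 FPKM in CD_DSS, without overlap (log2 fold change −1.42, SE 0.25, limma adjusted p = 0.0605). Cyp2c38 had 2.23, 3.07 and 2.64 FPKM against 13.4, 6.46 and 11.8 FPKM, also without overlap (−1.61, SE 0.31, limma adjusted p = 0.0703). Cyp2b10, the classical CAR target, was listed at 0 in all 3 HFD_DSS libraries and at 0.159, 0.0769 and 0.119 FPKM in CD_DSS, under the filter. The summed hepatocyte markers, among which Cyp3a11 itself is counted, were lower in HFD_DSS 2 and 3 than in each CD_DSS library and in HFD_DSS 1 within the CD_DSS range given above, and their part in these results was not tested. In bulk liver, fewer cells of a type and less RNA in each cell cannot be told apart.

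**Figure D2:**
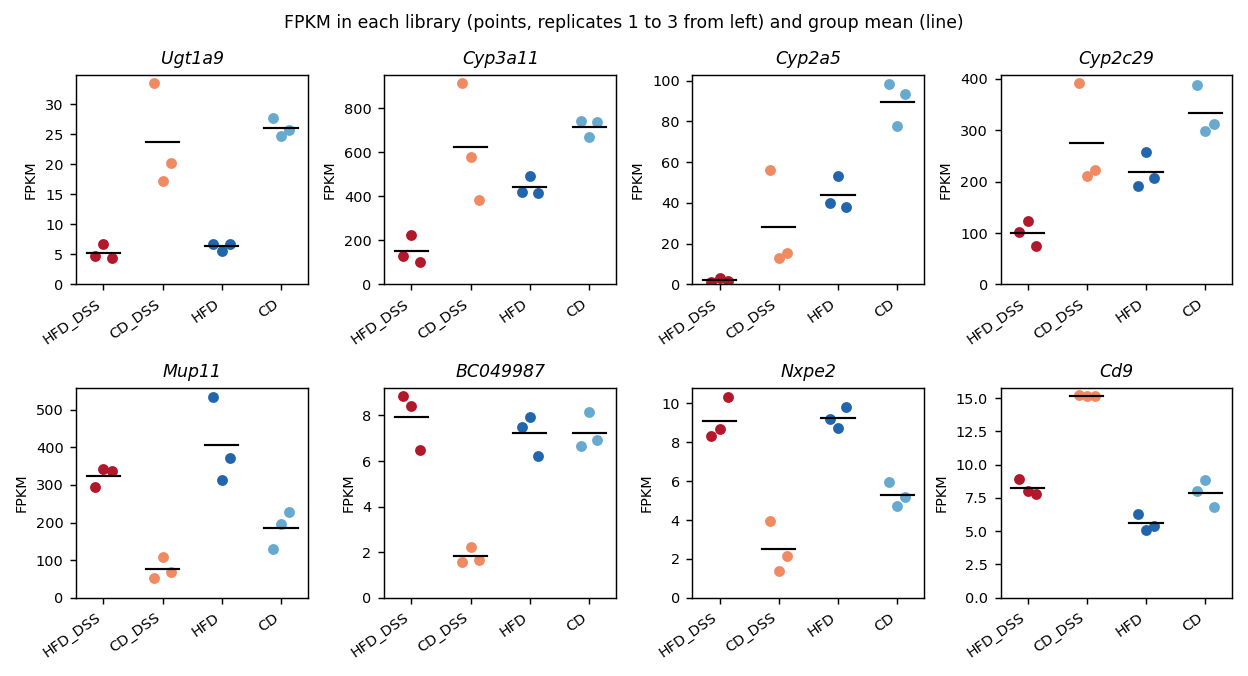
FPKM (y axis, from 0) of 8 genes in each of the 12 libraries, with the groups on the x axis, a point per library in the order of its replicate number and a line at the group mean. Ugt1a9, Cyp3a11, Cyp2a5 and Cyp2c29 are lower in HFD_DSS than in CD_DSS and Mup11, BC049987 and Nxpe2 are higher, while BC049987 overlaps between HFD and CD. Cd9 is lower in HFD_DSS, with all 3 CD_DSS libraries close to 15.1 FPKM.

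Genes of glutathione conjugation and antioxidant defence were in part low in HFD_DSS as well, although none was called. Of 17 tested members of the list of NRF2 targets, 5 lay below in all HFD_DSS libraries and 0 above. They were Nqo1 and the 4 named next. Gsta4, a glutathione S-transferase of lipid peroxidation products, had 5.90, 12.0 and 7.44 FPKM in HFD_DSS against 39.3, 22.1 and 19.2 FPKM in CD_DSS (log2 fold change −1.54, SE 0.29, limma adjusted p = 0.0637). Gsta2 had 1.53, 1.68 and 1.14 FPKM against 13.2, 5.59 and 3.58 FPKM (−1.63, limma adjusted p = 0.0895). Gstm1, an abundant member of the same enzyme family, had 227, 264 and 225 FPKM in HFD_DSS against 1237, 505 and 396 FPKM in CD_DSS (−1.39, limma adjusted p = 0.125). In these 3 genes CD_DSS 1 was the highest library. Cbr1, a carbonyl reductase, had 15.2, 13.5 and 13.7 FPKM in HFD_DSS against 31.4, 21.6 and 25.4 FPKM in CD_DSS (−0.83, SE 0.14, limma adjusted p = 0.0566). The list as a whole had a median of −0.21, which was −0.07 without CD_DSS 1 and −0.37 without CD_DSS 3. Without CD_DSS 1 and HFD_DSS 2 the median was −0.04, with 7 of the 17 below and 3 above (41.2% and 17.6%, beside 24.4% each of all genes). Without DSS 6 of the 17 lay below in all HFD libraries and 0 above, beside 6.59% of all genes below there.

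The major urinary protein genes tended to be higher in HFD_DSS. Mup11 had 296, 343 and 337 FPKM in HFD_DSS against 52.5, 108 and 68.2 FPKM in CD_DSS. The HFD_DSS libraries were close together and all far above CD_DSS, and the log2 fold change was 2.14 (SE 0.28, limma adjusted p = 0.0119). Without DSS Mup11 had 534, 314 and 372 FPKM in HFD against 130, 195 and 229 FPKM in CD (log2 fold change 1.14, SE 0.28, limma adjusted p = 0.300), and the difference between the diet effects was 1.00 (SE 0.39, limma adjusted p = 0.998). Mup13 had 195, 149 and 84.8 FPKM in HFD_DSS against 3.03, 6.23 and 3.48 FPKM in CD_DSS (4.75, SE 0.88, limma adjusted p = 0.0637). It was named as an uncalled gene with a low p and without overlap, so its lack of overlap is no support for a difference. Mup7, the most abundant of those named, had 4996, 4825 and 4678 FPKM against 1813, 2094 and 2826 FPKM (1.13, SE 0.27, limma adjusted p = 0.136).

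Of 22 genes with a Mup symbol and number, 20 were tested, and 15 of them lay above in all HFD_DSS libraries, beside 7.49% of all genes, and 0 below. With CD_DSS 1 and HFD_DSS 2 left out, 18 of the 20 lay above, beside 24.4% of all genes. The median log2 fold change of the 20 was 1.99 with DSS and 0.68 without DSS, where 7 lay above. This family was set apart after its values had been seen. The Mup genes lie in a cluster of near-identical copies on chromosome 4, and fragments that match several copies can be split among them, so that the level of a single member is uncertain. Only Mup11 was called. Mup11 (ENSMUSG00000073834) spans chr4:60658466-60662411 in mm10.

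Lists of genes with a known sex bias in mouse liver were in part placed the same way. Of 21 tested genes on the list of those higher in males, 6 lay above and 2 below in all HFD_DSS libraries. Their median was 0.44, or 0.84 without HFD_DSS 1. This list contains 4 Mup genes, which are also in the Mup counts above, so its counts are not separate from those. Among the 6 was Moxd1, which passed the filter only through HFD_DSS. When CD_DSS 1 and HFD_DSS 2 were left out, 8 lay above and 3 below (38.1% and 14.3%, beside 24.4% each of all genes). The pseudogene Serpina4-ps1 had 60.6, 60.1 and 60.4 FPKM in HFD_DSS, against 17.0, 16.0 and 7.66 FPKM in CD_DSS (log2 fold change 2.15, SE 0.40, limma adjusted p = 0.0637). Selenbp2, a selenium-binding protein, had 292, 412 and 328 FPKM against 105, 232 and 174 FPKM (1.07, SE 0.25, limma adjusted p = 0.136). Cyp7b1, the oxysterol 7α-hydroxylase, overlapped: it had 40.9, 172 and 170 FPKM in HFD_DSS and 45.2, 47.3 and 38.4 FPKM in CD_DSS. Of the 20 genes on the list of those higher in females, 6 passed the filter and 3 of them lay below. Among these was Cyp2c69, with 0.808, 0.793 and 0.733 FPKM in HFD_DSS against 5.72, 3.44 and 11.1 FPKM in CD_DSS (−2.003, SE 0.37, limma adjusted p = 0.0637). Cyp2c69 passed the filter only through CD_DSS, where it is high, so its place in that count is no support for the direction. Without DSS Cyp2c69 had 2.20, 1.17 and 1.48 FPKM in HFD against 19.7, 6.82 and 9.07 FPKM in CD. The sex of the mice is not in the labels, and whether it was balanced between the groups was not tested.

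BC049987, an intergenic noncoding RNA of unknown function (ENSMUSG00000110755, chr9:44670453-44672238 in mm10), gave the lowest p. It and the other genes with clone or prediction names below were named after their values had been seen. It had 8.85, 8.44 and 6.48 FPKM in HFD_DSS livers, against 1.59, 2.23 and 1.64 FPKM in CD_DSS livers, a log2 fold change of 1.66 (SE 0.13, limma adjusted p = 0.000624). Without DSS it had 7.51, 7.92 and 6.21 FPKM in HFD and 6.65, 8.13 and 6.94 FPKM in CD, so that CD_DSS was the low group of the 4. It was the only gene in which the diet effects with and without DSS differed at the threshold (difference 1.66, SE 0.19, limma adjusted p = 0.0213), that is 1 of 10294 genes (0.00971%). At an unadjusted p under 0.05 the difference between the diet effects held 506 genes. The test of the difference gave no call when HFD_DSS 1, HFD_DSS 2, CD_DSS 1 or CD_DSS 3 was left out, nor when HFD 2, HFD 3, CD 1 or CD 2 was.

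Nxpe2, a member of the neurexophilin-like family, had 8.32, 8.67 and 10.4 FPKM in HFD_DSS against 3.93, 1.39 and 2.17 FPKM in CD_DSS, all above (log2 fold change 1.59, SE 0.20, limma adjusted p = 0.0119). Cldn2, a claudin that forms cation-permeable pores in tight junctions and is expressed in hepatocytes and bile ducts, had 38.4, 52.2 and 42.1 FPKM in HFD_DSS against 26.6, 27.8 and 25.9 FPKM in CD_DSS (0.69, SE 0.11, limma adjusted p = 0.0458). Without DSS its groups overlapped, at 31.5, 30.2 and 26.5 FPKM in HFD and 31.1, 29.5 and 29.1 FPKM in CD. The other called genes that rose carry prediction names: the processed pseudogene Gm45344 (0.93, SE 0.12, limma adjusted p = 0.0119) and the noncoding RNA Gm47465 (0.85, SE 0.14, limma adjusted p = 0.0484), both under 3 FPKM in all 6 libraries. Gm45344 passed the filter on low values only through HFD_DSS, where it is high, since all 3 CD_DSS libraries had under 1 FPKM, so its call is no support for the direction.

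A further 5 genes fell. The tetraspanin Cd9, a membrane protein of many cell types, had 8.93, 8.02 and 7.82 FPKM in HFD_DSS against 15.3, 15.1 and 15.1 FPKM in CD_DSS (log2 fold change −0.81, SE 0.10, limma adjusted p = 0.0119). Gm2a, the GM2 activator that presents gangliosides to lysosomal hexosaminidase, had 20.1, 17.4 and 16.5 FPKM against 33.8, 32.3 and 29.8 FPKM (−0.80, SE 0.10, limma adjusted p = 0.0119). Ak4, a mitochondrial adenylate kinase, had 8.66, 8.82 and 8.29 FPKM in HFD_DSS against 17.8, 15.6 and 17.3 FPKM in CD_DSS (−0.90, SE 0.12, limma adjusted p = 0.0181). In Ak4 the groups did not overlap with DSS, and they did without it, at 10.1, 14.8 and 14.8 FPKM in HFD and 13.4, 13.997 and 12.9 FPKM in CD. Paics, which catalyses steps of purine synthesis, had 49.4, 52.1 and 53.5 FPKM in HFD_DSS against 86.9, 78.8 and 73.0 FPKM in CD_DSS (−0.61, SE 0.09, limma adjusted p = 0.0337). It shares 8.67% of its exon bases with Ppat, which lies on the opposite strand. Cd207, the gene of langerin, a lectin of dendritic cells, had 1.61, 1.18 and 0.852 FPKM against 2.86, 2.96 and 2.69 FPKM (−0.81, SE 0.13, limma adjusted p = 0.0458).

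Uncalled genes with the lowest unadjusted p were taken only where the groups did not overlap, and 5 of them are given as values. Zfp518a, Olfr1033 and Slc23a1, all on the higher side, also met this rule (limma adjusted p = 0.0566, 0.0622 and 0.0637), as did Mup13, given above. Them7 had 11.9, 11.7 and 11.5 FPKM in HFD_DSS against 5.39, 8.03 and 6.76 FPKM in CD_DSS (log2 fold change 0.73, limma adjusted p = 0.0622). Agxt2, a mitochondrial aminotransferase, had 35.4, 41.5 and 45.1 FPKM against 27.0, 28.9 and 25.3 FPKM (0.57, limma adjusted p = 0.0637). Capn8, a calpain protease, had 4.67, 2.14 and 2.87 FPKM against 0.596, 1.08 and 0.853 FPKM (1.16, limma adjusted p = 0.0637). On the lower side, Sox18, a transcription factor of endothelial cells, had 2.99, 2.89 and 2.53 FPKM in HFD_DSS against 4.66, 4.16 and 5.41 FPKM in CD_DSS (−0.59, limma adjusted p = 0.0566). Rassf7 had 3.60, 4.53 and 4.10 FPKM against 6.77, 6.14 and 7.16 FPKM (−0.60, limma adjusted p = 0.0566). That the groups of these 5 genes and of Mup13 did not overlap was a condition for naming them and is no support for a difference.

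Genes of cholesterol synthesis and uptake tended to be higher in HFD_DSS, and none passed the test. Of the 25 members, 21 had a positive log2 fold change, 10 lay above in all HFD_DSS libraries (40% beside 7.49% of all genes) and 0 below, and the median was 0.38, or 0.25 without HFD_DSS 2 and 0.57 without HFD_DSS 3. Hmgcs1, which makes HMG-CoA for the mevalonate pathway, had 189, 144 and 86.6 FPKM in HFD_DSS against 79.1, 51.9 and 73.3 FPKM in CD_DSS (log2 fold change 0.98, SE 0.33, limma adjusted p = 0.293). Mvk, mevalonate kinase, had 19.6, 14.7 and 10.2 FPKM against 6.68, 7.27 and 9.84 FPKM (0.80, SE 0.20, limma adjusted p = 0.155). Msmo1, a sterol methyl oxidase, had 55.5, 38.8 and 28.1 FPKM against 20.6, 19.4 and 26.1 FPKM (0.82, SE 0.25, limma adjusted p = 0.256). In each of these genes HFD_DSS 3 was only just above the highest CD_DSS library. Hsd17b7, a sterol ketoreductase, had 26.0, 26.1 and 19.8 FPKM in HFD_DSS against 17.7, 9.81 and 14.7 FPKM in CD_DSS (0.75, limma adjusted p = 0.264).

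Without DSS the same 25 genes lay on the other side: 0 were above in all HFD libraries, 11 were below in all of them, and the median was −0.49. Sqle, squalene epoxidase, illustrates both: it had 38.9, 29.5 and 27.8 FPKM in HFD_DSS against 17.2, 22.3 and 26.0 FPKM in CD_DSS, and 14.5, 8.79 and 17.0 FPKM in HFD against 27.0, 20.6 and 24.2 FPKM in CD. The difference between its diet effects was 1.36 (SE 0.32, limma adjusted p = 0.668). No member of the list was called in the test of that difference, whose median over the list was 0.80. Without CD_DSS 1 and HFD_DSS 2, 11 of the 25 lay above and 1 below, beside 24.4% each of all genes.

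**Figure D3:**
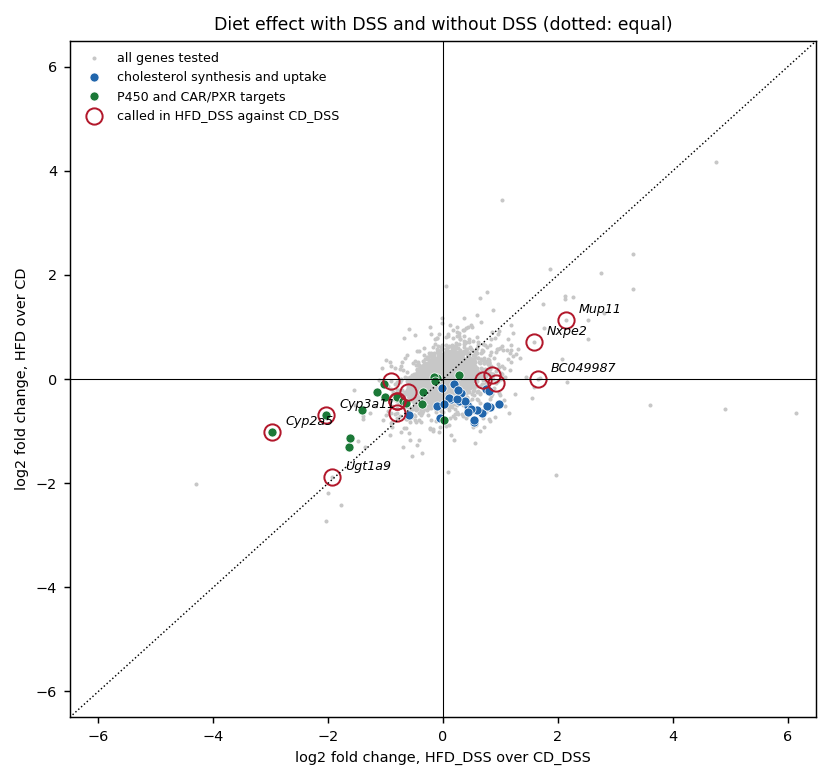
Each point is a gene, with the log2 fold change of HFD_DSS over CD_DSS on the x axis and that of HFD over CD on the y axis, and the dotted line marks equal values. The 25 cholesterol genes (blue) mostly lie right of 0 and below 0, the 18 P450 genes and CAR and PXR targets (green) mostly lie at lower left, and the 14 genes called with DSS are ringed.

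Of bile acid genes, Cyp8b1, which sets the share of cholic acid, had 187, 141 and 160 FPKM in HFD_DSS against 86.2, 113 and 116 FPKM in CD_DSS (log2 fold change 0.63, SE 0.17, limma adjusted p = 0.182). Without DSS it was the HFD libraries that were low, at 164, 203 and 219 FPKM against 324, 245 and 312 FPKM in CD. Cyp7a1, the rate-limiting enzyme of the classical pathway, overlapped, with 14.1, 1.44 and 15.3 FPKM in HFD_DSS and 2.37, 0.379 and 1.15 FPKM in CD_DSS, and HFD_DSS 2 was at the level of CD_DSS. Of the 20 tested members, 1 lay above (Cyp8b1) and 5 below, and none was called. Below were Slco1a4, an organic anion uptake carrier, with 2.24, 1.74 and 2.26 FPKM in HFD_DSS against 8.92, 7.84 and 4.95 FPKM in CD_DSS (−1.39, limma adjusted p = 0.122). Cyp2c70, which makes muricholic acids in mice, had 238, 208 and 230.5 FPKM against 283, 415 and 379 FPKM (−0.65, limma adjusted p = 0.126).

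Lipogenic genes mostly had negative log2 fold changes in HFD_DSS, but only 1 lay below without overlap, and none was called. Scd1, the stearoyl-CoA desaturase that makes monounsaturated fatty acids, had 8.37, 71.2 and 14.3 FPKM in HFD_DSS against 1307, 294 and 208 FPKM in CD_DSS. The groups did not overlap, the scatter within each was wide, and the log2 fold change of −4.31 (SE 0.88) had a limma adjusted p of 0.0868, or 0.0440 without HFD_DSS 2. Without DSS Scd1 had 108, 547 and 686 FPKM in HFD against 1598, 1369 and 1235 FPKM in CD. Of the 21 tested members of fatty acid and triglyceride synthesis, Scd1 alone lay below in all HFD_DSS libraries (4.76%, beside 9.06% of all genes), and 0 lay above. A negative log2 fold change was found in 17 members, while 48.8% of all genes tested had a positive one. Fasn, fatty acid synthase, overlapped, with 11.9, 22.2 and 15.3 FPKM in HFD_DSS and 39.0, 17.9 and 21.4 FPKM in CD_DSS. Acaca, acetyl-CoA carboxylase, also overlapped, at 3.44, 4.95 and 2.80 FPKM in HFD_DSS and 8.27, 4.56 and 5.68 FPKM in CD_DSS, and likewise Acly, ATP citrate lyase, at 28.6, 35.9 and 24.3 FPKM and 46.2, 34.1 and 38.3 FPKM. In all 3 genes CD_DSS 1 was the highest of the 6 libraries. The median of the list was −0.30 with DSS and −0.43 without DSS, where 10 members lay below and 1 above. Under DSS it was −0.60 without HFD_DSS 2, −0.18 without HFD_DSS 3 and −0.19 without CD_DSS 1. With CD_DSS 1 and HFD_DSS 2 both left out, 14 of the 21 lay below and 2 above (66.7% and 9.52%, beside 24.4% each of all genes).

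Of 25 tested PPARα targets and genes of fatty acid oxidation, 2 lay above and 0 below, near the background, with a median of 0.01. When CD_DSS 1 and HFD_DSS 2 were left out, 10 lay above and 4 below (40% and 16%, beside 24.4% each of all genes). The 2 that lay above with all libraries kept were Cpt1a and Creb3l3. Cpt1a, which admits fatty acids to mitochondria, had 98.0, 147 and 109 FPKM in HFD_DSS against 97.8, 84.1 and 93.7 FPKM in CD_DSS. Creb3l3, a liver transcription factor of fasting, had 112, 122 and 118 FPKM against 99.7, 94.1 and 95.0 FPKM. Without DSS 8 of the 25 lay above and 1 below. Of 23 tested genes of lipid droplets and fatty acid uptake, 1 lay above and 2 below, with a median of −0.02. Over LXR targets and sterol export, 2 of 11 lay above and 2 below. Over apolipoproteins and lipoprotein assembly, 1 of 23 lay above and 3 below.

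Acute phase genes had a higher median in HFD_DSS, which rested on CD_DSS 1, and the groups overlapped in all but 1 gene. Of 31 tested members, 29 had a positive log2 fold change and the median was 0.68, yet 1 lay above in all HFD_DSS libraries and 0 below. The median was −0.02 without CD_DSS 1 and 1.03 without HFD_DSS 2. The gene that lay above was Cebpb, a transcription factor of the acute phase response, with 86.8, 85.3 and 99.5 FPKM in HFD_DSS against 66.2, 39.9 and 49.0 FPKM in CD_DSS (log2 fold change 0.82, limma adjusted p = 0.288). Saa1, serum amyloid A, had 1104, 191 and 2670.4 FPKM in HFD_DSS and 9.14, 595 and 483 FPKM in CD_DSS (2.53, SE 1.64, limma adjusted p = 0.604). Lcn2, a siderophore-binding protein of the same response, had 366, 38.3 and 423 FPKM and 2.35, 99.0 and 94.4 FPKM (2.53, SE 1.46, limma adjusted p = 0.553). In both genes HFD_DSS 2 lay below CD_DSS 2 and 3, and CD_DSS 1 was the lowest library. Socs3, a feedback inhibitor of cytokine signalling, had 14.7, 10.7 and 26.7 FPKM in HFD_DSS and 7.67, 11.0 and 10.9 FPKM in CD_DSS.

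The median of the list in each library, relative to the mean of all 12 libraries, was 1.39, 0.22 and 1.45 log2 units in HFD_DSS and −0.67, 0.92 and 1.04 in CD_DSS. Without CD_DSS 1 and HFD_DSS 2, 20 of the 31 members lay above and 2 below, beside 24.4% of all genes each way, and the median log2 fold change was 0.47. These libraries were set aside in part for their acute phase levels, so this count is no support for a difference between the diets. The 4 neutrophil markers that passed the filter, of 13 (S100a8, S100a9, Csf3r and Retnlg), followed the same libraries. Their summed level over all 13 was 61.2, 6.29 and 52.7 FPKM in HFD_DSS and 4.46, 25.7 and 19.4 FPKM in CD_DSS, and their part in the acute phase values was not tested.

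Chaperones of the endoplasmic reticulum (ER) were placed in a similar way across libraries. Many of these genes carry the ER stress element, CCAAT and CCACG with 9 unspecified bases between them, through which ATF6 and XBP1 switch them on when unfolded proteins accumulate. It was found, on either strand, in 37 of the 32851 promoters in the table (0.113%) and in 9 of the 20 genes of the list that had an entry. The 4 examples that follow show it in capitals with 20 bases on each side, 5′ to 3′ on the strand of the gene (RefSeq, GRCm38.p6), and in Creld2 and Derl3 it reads in the opposite orientation.
Creld2, chr15:88819500-88819558, plus strand: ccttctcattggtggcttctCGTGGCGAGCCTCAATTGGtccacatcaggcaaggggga
Derl3, chr10:75893222-75893280, plus strand: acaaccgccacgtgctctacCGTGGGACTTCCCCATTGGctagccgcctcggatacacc
Dnajc3, chr14:118937807-118937865, plus strand: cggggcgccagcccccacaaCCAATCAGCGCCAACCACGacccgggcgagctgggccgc
Hspa5, chr2:34772005-34772063, plus strand: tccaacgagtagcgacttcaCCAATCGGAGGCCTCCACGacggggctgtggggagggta
Derl3, a factor of ER-associated degradation, had 46.0, 9.06 and 25.9 FPKM in HFD_DSS against 3.35, 8.49 and 6.92 FPKM in CD_DSS, without overlap (log2 fold change 1.76, SE 0.51, limma adjusted p = 0.224). Dnajc3, an inhibitor of the kinase PERK, overlapped, at 158, 93.2 and 134 FPKM in HFD_DSS and 87.6, 95.7 and 96.0 FPKM in CD_DSS. Hsp90b1, the ER paralogue of HSP90, had 583, 240.1 and 418 FPKM in HFD_DSS and 207, 268 and 258 FPKM in CD_DSS (0.68, limma adjusted p = 0.419).

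Of the 24 members, 23 had a positive log2 fold change, with a median of 0.37 (0.21 without HFD_DSS 1 and 0.57 without HFD_DSS 2), and 3 lay above in all HFD_DSS libraries (12.5%, beside 7.49% of all genes). In HFD_DSS 2 these genes were at the level of CD_DSS: the list's median by library was 0.74, 0.01 and 0.59 log2 units in HFD_DSS and −0.15, 0.13 and 0.21 in CD_DSS. With CD_DSS 1 and HFD_DSS 2 left out, 22 of the 24 lay above and 0 below, beside 24.4% of all genes, and the median was 0.49. Those libraries were chosen partly on acute phase levels, which the ER genes resembled across libraries, so this count is no support for a difference between the diets. Without DSS the median over these genes was −0.03.

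**Figure D4:**
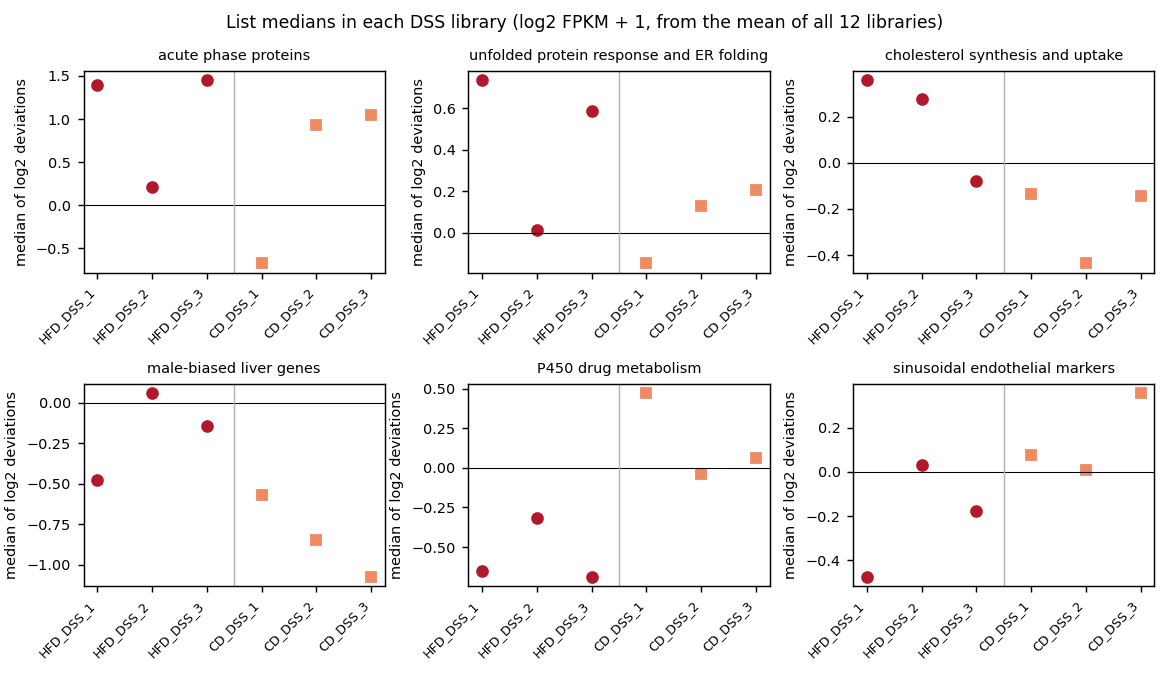
The y axis gives the median over the members of a list of their log2 (FPKM + 1) relative to each gene's mean over all 12 libraries, with a point for each DSS library and HFD_DSS to the left of CD_DSS. The acute phase and ER lists are high in HFD_DSS 1 and 3 and low in HFD_DSS 2 and CD_DSS 1, whereas the P450 list is below 0 in all 3 HFD_DSS libraries and between −0.04 and 0.47 in CD_DSS.

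Among targets of ATF4 in the integrated stress response, 4 of 17 lay above (Asns, Chac1, Atf5 and Cebpg) and 1 below (Slc3a2). Asns, asparagine synthetase, had 7.05, 3.45 and 3.98 FPKM in HFD_DSS against 1.27, 1.29 and 1.51 FPKM in CD_DSS (log2 fold change 1.26, SE 0.28, limma adjusted p = 0.120). Chac1, which degrades glutathione, had 7.32, 11.4 and 8.56 FPKM against 5.81, 5.73 and 3.98 FPKM (0.70, limma adjusted p = 0.384). Both were without overlap, and HFD_DSS 1 was the highest library for Asns and HFD_DSS 2 for Chac1. The cytosolic heat shock chaperones had 1 of 16 above and 1 below.

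Autophagy, which the title of the study names, showed small differences in both directions and no call. Of 41 tested genes of the autophagy machinery, 3 lay above (Optn, Wipi1 and Atg16l1), 6 lay below (Bnip3, Bnip3l, Atg4d, Atg101, Gabarapl1 and Uvrag), and the median was −0.02. These shares, 7.32% and 14.6%, compare with 7.49% and 9.06% of all genes. When CD_DSS 1 and HFD_DSS 2 were left out, 8 lay above and 15 below (19.5% and 36.6%, beside 24.4% each of all genes), with a median of −0.05. Optn, an autophagy receptor of damaged mitochondria and bacteria, had 16.5, 19.1 and 18.6 FPKM in HFD_DSS against 15.4, 13.7 and 12.6 FPKM in CD_DSS (log2 fold change 0.36, SE 0.10, limma adjusted p = 0.220). Bnip3l, a mitophagy receptor, had 18.3, 19.97 and 17.6 FPKM against 25.8, 21.6 and 22.0 FPKM (−0.30, SE 0.09, limma adjusted p = 0.233). Its relative Bnip3 had 33.3, 34.2 and 30.1 FPKM in HFD_DSS against 35.9, 51.0 and 46.3 FPKM in CD_DSS (−0.42, limma adjusted p = 0.293). Sqstm1, the cargo receptor p62, overlapped fully, with 160.5, 142 and 145 FPKM in HFD_DSS and 151, 144 and 153 FPKM in CD_DSS (log2 fold change −0.01, SE 0.09), and its sign changed with the processing. Ulk1, the kinase that starts autophagy, had 14.4, 18.4 and 12.0 FPKM in HFD_DSS and 18.7, 18.0 and 21.1 FPKM in CD_DSS, with HFD_DSS 2 inside the range of CD_DSS.

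Of 32 lysosomal enzymes and proton pump subunits, 29 had a negative log2 fold change, 5 lay below (Npc2, Glb1, Gusb, Gaa and Lamp1) and 0 above, with a median of −0.09, or −0.13 without CD_DSS 1. Without CD_DSS 1 and HFD_DSS 2, 17 lay below and 2 above (53.1% and 6.25%, beside 24.4% each of all genes), with a median of −0.14. Npc2, the lysosomal cholesterol carrier, had 11.2, 9.47 and 10.8 FPKM in HFD_DSS against 12.5, 14.2 and 13.6 FPKM in CD_DSS (log2 fold change −0.33, SE 0.09, limma adjusted p = 0.195). Glb1, β-galactosidase, had 2.99, 3.53 and 3.85 FPKM against 3.92, 4.71 and 5.05 FPKM, and Gusb, β-glucuronidase, had 7.04, 7.31 and 5.93 FPKM against 8.42, 8.20 and 8.64 FPKM. Neither was called (limma adjusted p = 0.275 and 0.281). Without DSS the median was −0.08, with 10 of the 32 below. The called gene Gm2a acts in the same organelle and is not on the list.

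Periportal hepatocyte genes lay lower in HFD_DSS. Of 16 tested, 8 lay below in all HFD_DSS libraries (50%, beside 9.06% of all genes) and 0 above, with a median of −0.33. With CD_DSS 1 and HFD_DSS 2 left out, 10 lay below and 0 above (62.5% and 0%, beside 24.4% each of all genes). Without DSS 5 of the 16 lay below in all HFD libraries and 0 above, with a median of −0.17. Gls2, the liver glutaminase, had 42.3, 41.3 and 41.8 FPKM in HFD_DSS against 78.7, 70.5 and 66.0 FPKM in CD_DSS (log2 fold change −0.76, SE 0.16, limma adjusted p = 0.0868). Hal, which degrades histidine, had 36.2, 28.4 and 35.1 FPKM against 46.6, 78.9 and 74.1 FPKM (−0.95, SE 0.24, limma adjusted p = 0.155). Ass1 of the urea cycle had 411, 503 and 425 FPKM in HFD_DSS against 857, 590.3 and 615 FPKM in CD_DSS (−0.61, SE 0.17, limma adjusted p = 0.224). Of 28 genes of amino acid catabolism and urea formation, 6 lay below and 0 above. Of 13 tested pericentral genes, 0 lay above and 0 below, and Glul, the pericentral glutamine synthetase, had 32.2, 36.9 and 92.0 FPKM in HFD_DSS and 38.9, 17.6 and 25.0 FPKM in CD_DSS.

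In heme synthesis, Cpox, coproporphyrinogen oxidase, had 37.5, 32.0 and 39.9 FPKM in HFD_DSS against 26.4, 21.7 and 25.6 FPKM in CD_DSS (log2 fold change 0.55, SE 0.10, limma adjusted p = 0.0637). Of the 15 genes of the hemoglobin and heme list, 3 lay above, Cpox among them, and 5 below, which were Fech and the 4 globin genes. Hba-a2, an α-globin gene, had 5.53, 2.91 and 6.34 FPKM in HFD_DSS against 10.1, 10.6 and 12.2 FPKM in CD_DSS (−1.06, SE 0.35, limma adjusted p = 0.285). The summed level of the 9 erythroid markers, 4 of which are those globins, was 185 to 282 FPKM in HFD_DSS and 336 to 596 FPKM in CD_DSS. Of the 6 markers tested, the 4 globins had a negative log2 fold change and the other 2 a positive one. The sum contains the globins and is not separate from their values.

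**Figure D5:**
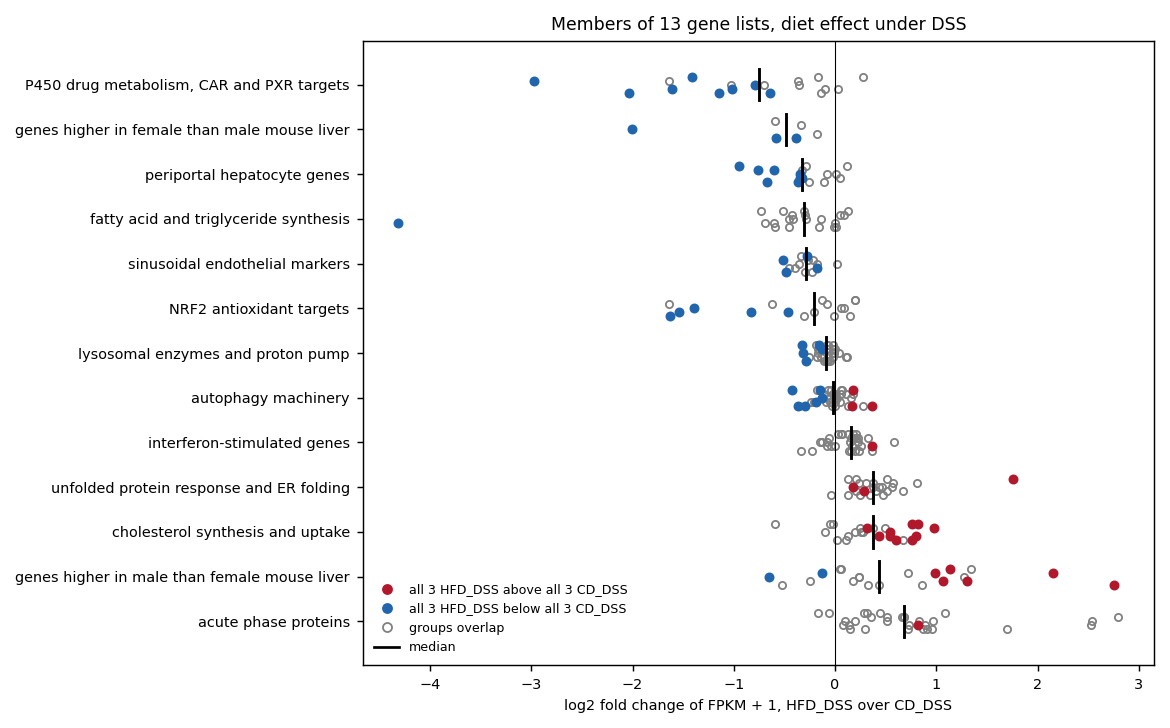
Each row is a gene list and each circle a tested member at its log2 fold change of HFD_DSS over CD_DSS (x axis), filled red or blue where all 3 HFD_DSS libraries lie above or below all 3 CD_DSS libraries and open where the groups overlap, with a bar at the median. The P450 list has 8 filled blue members and a median of −0.75, and the cholesterol list has 10 filled red members and a median of 0.38.

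Markers of other cell types were read for the same livers. Of 14 sinusoidal endothelial markers, 13 had a negative log2 fold change and 4 lay below, with a summed level of 115 to 151 FPKM in HFD_DSS and 148 to 189 FPKM in CD_DSS. Gpr182, a scavenging chemokine receptor of these cells, had 6.72, 9.50 and 8.02 FPKM in HFD_DSS against 10.8, 10.7 and 13.3 FPKM in CD_DSS (log2 fold change −0.48, SE 0.12, limma adjusted p = 0.153). Oit3, another gene of these cells, had 8.50, 12.7 and 8.81 FPKM against 14.5, 12.9 and 16.3 FPKM. With CD_DSS 1 and HFD_DSS 2 left out, 13 of the 14 lay below, beside 24.4% of all genes. The list's median by library was −0.47, 0.03 and −0.18 log2 units in HFD_DSS and 0.08, 0.01 and 0.36 in CD_DSS. HFD_DSS 2 was thus at the level of CD_DSS, and the count without it is no support for a difference between the diets. Of 14 tested Kupffer cell and macrophage markers, of 19, 1 lay above and 0 below, with sums of 448 to 644 FPKM in HFD_DSS and 368 to 672 FPKM in CD_DSS. Of the 13 stellate cell markers, 1 lay below and 0 above. None of 15 T and NK cell markers passed the filter, and Adipoq, Lep, Plin1 and Retn of adipocytes and 9 of 12 exocrine pancreas markers, Prss1 and Pnlip among them, were at 0 in all 6 libraries.

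Among the remaining lists, nuclear-encoded genes of oxidative phosphorylation had 4 of 33 below and 0 above (median −0.10), and the 13 mitochondrially encoded ones had 4 above and 0 below (median 0.24). Proteasome subunits had 4 of 30 above (median 0.06) and ribosomal proteins 1 of 35 below (median −0.03). Interferon-stimulated genes had 1 of 31 above with DSS, whereas without DSS 15 of the same 31 lay above in HFD, beside 6.58% of all genes above in that comparison, with medians of 0.16 and 0.32. Glucocorticoid receptor targets had 1 of 17 above (median 0.34), cytokines and NF-kB targets 1 of 15 above and 1 below, antigen presentation 1 of 11 below and cell cycle genes 1 of 10 below. Gluconeogenesis and glycolysis had 1 of 21 above and 5 below, and the circadian clock, with 16 tested genes, and the matrix genes, with 19, had 0 above and 0 below. When CD_DSS 1 and HFD_DSS 2 were left out, 10 of the 19 matrix genes lay below and 1 above. In the same libraries 17 of 30 proteasome genes lay above and 0 below, and 9 of 13 mitochondrially encoded genes lay above and 1 below. Over all genes tested, 24.4% lay above and 24.4% below with those libraries left out.

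The diet effect without DSS was compared gene by gene with that under DSS, the pair sharing no library. Without DSS, HFD against CD gave 1 call, Ugt1a9 (0.00971% of genes), with 678 genes at an unadjusted p under 0.05. The 3 HFD libraries were all above the 3 CD libraries in 6.58% of the genes and all below in 6.59%. Across the 10294 genes, which are not independent of each other, the log2 fold changes of the diet with and without DSS had a Pearson correlation of 0.40 and a Spearman correlation of 0.30, and 60.3% had the same sign. Of the 14 genes called with DSS, 11 had the same sign without DSS and 9 were also without overlap in the same direction there. Of the 933 genes below in all HFD_DSS libraries, 181 were also below in all HFD libraries (19.4% of the 933 and 26.7% of the 678), and 19 were above. Of the 771 genes above in HFD_DSS, 97 were also above in HFD (12.6% of the 771 and 14.3% of the 677), and 19 were below.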

How the data were processed

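RNA from liver was made into libraries with a SMARTer mRNA kit and sequenced, per the labels' protocols. The authors deposited FPKM values per Ensembl gene ID for 12 libraries in 4 groups. Per the submitters' processing notes, the reads were placed on mm10; no source used here names the aligner or counter. For fragment totals below 500 per gene, 97.0 to 97.3% of values were whole fragments within 0.02. Symbols, coordinates and exon lengths came from GENCODE vM21 (54495 of 54532 IDs, 99.9%).

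Genes that reached 1 FPKM in 3 or more of the 6 DSS libraries were tested with limma 3.58.1 in R 4.3.3 on log2(FPKM + 1). The fit had 4 group means over 12 libraries, a variance trend and no covariate, and was two-sided, with Benjamini-Hochberg adjustment and a threshold of 0.05. It was tested on simulated data. For a single gene, 3 libraries against 3 cannot reach an exact permutation p below 0.1, so no such test is given.

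Genes were named if called, or if they had the lowest p of uncalled genes without overlap, to 10 per direction. Others were on a fixed panel or were the tested members of a list with the lowest unadjusted p, up to 4 per list. Members named for a list are therefore not typical of it. Their low p and lack of overlap are no support for a difference in the list. Members and lists were chosen with earlier results of these data known. A count of genes lying above or below means that the 3 libraries of one group did not overlap the 3 of the other. Alternatives covered pseudocount, filter, scaling, library weights, voom on recovered fragments, a replicate block and leaving out libraries.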

Additional observations from a re-analysis of the deposited data

Results flagged for a closer look

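BC049987 stood out because its diet effects with and without DSS differed by 1.66 on the log2 scale in the test of the difference itself (SE 0.19, limma adjusted p = 0.0213). It was higher in all 3 HFD_DSS libraries than in all 3 CD_DSS libraries, and HFD and CD overlapped. It was the only one of 10294 genes to pass that test, and 506 had an unadjusted p under 0.05.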

How the results depend on the processing

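The count of genes called in HFD_DSS against CD_DSS was 14. It was 6 with no filter on low values, 25 with a mean of at least 5 FPKM, 163 with library weights, 6 when a log2 fold change of at least 1 was also required, and 5 with the DSS groups fitted alone. Leaving out each replicate in turn gave 3 to 30 calls. Apart from the replicate block, given below, it was 10 to 16 under the other alternatives, including 12 with voom on recovered fragments. For HFD against CD, with 1 call, the count was 6 with no filter, 2 with a mean of at least 5 FPKM, 0 with TPM scaling, 80 with library weights and 6 with its groups alone, and 0 to 2 leaving out each replicate. For the difference between the diet effects, with 1 call, the count was 0 with no filter, 0 with CD_DSS 1 and HFD_DSS 2 left out, and 0 to 3 leaving out each replicate. It was also 0 with a mean of at least 5 FPKM, a filter that the called gene BC049987 did not pass. The cause of the other changes was not tested.

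The deviations of same-numbered libraries from their group means had correlations of −0.35, −0.39 and 0.18 for HFD_DSS with CD_DSS. With 3 libraries per group, these values cannot decide whether the numbers pair the libraries. With a replicate block, HFD_DSS against CD_DSS gave 8 calls, 6 of them among the 14, and HFD against CD gave 3.

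Sqstm1 had a log2 fold change of −0.01, and of 0.0163 with quantile normalization, 0.0021 with library weights and 0.0390 with CD_DSS 1 and HFD_DSS 2 left out. Leaving out each replicate gave −0.0595 to 0.0304. CD_DSS 1 (weight 0.364) and HFD_DSS 2 (0.585) were the libraries with the lowest weights among those with DSS.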
